A study of Mus musculus with 15 samples.

Results

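The immediate early genes described here are Fos, Fosb, Jun, Junb, Egr1, Atf3, Ier2, Ier3, Zfp36 and Dusp1. They are well-known members of this class, listed by name, and the list was drawn up with earlier results of these data known. All 10 were found by Ensembl identifier among the 54532 genes of the table. One kidney from each of 15 male C57BL/6 mice was sequenced, 5 per group, and the mice were 8 weeks old when they entered the study. The C group ate a normal diet throughout and received vehicle by gavage. The M group is the chronic kidney disease (CKD) model. It ate chow with 0.25% adenine, which injures the tubules, for 4 weeks and standard chow until week 8, also with vehicle. The AA group ate the same adenine chow and then the same standard chow, and was given 30 mg/kg of asiatic acid, a triterpenoid of Centella asiatica, by gavage every day until week 8. AA was thus given during the injury as well as after it, and every adenine-fed kidney was taken after 4 weeks back on standard chow. All mice were killed under isoflurane by drawing blood from the heart, and the kidney was frozen in liquid nitrogen. Mice are numbered as in the labels, and the numbers do not tie a mouse of one group to a mouse of another.

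Immediate early genes are transcribed within minutes of a signal, because the factors that switch them on already wait in the cell. MAP kinases phosphorylate SRF partners such as Elk1 and members of the CREB and ATF family, which sit at these promoters. Most of the products are transcription factors, and Fos and Jun proteins pair to form AP-1. The response ends quickly because many of the messenger RNAs carry AU-rich elements in the 3' untranslated region (UTR), and because some products, such as Dusp1 and tristetraprolin (encoded by Zfp36), shut down the kinases or destroy the messages. In the kidney this class is known for rising after ischemia, toxins and cell stress.

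Levels are in FPKM, fragments on a gene divided by the length of its exons and by the fragments of the library, so levels of different genes can be set side by side. The deposited values, times gene length, summed to 0.435 to 1.93 of what that definition gives for a library, so the authors' scaling to library size was another one, which is not given in the sources used here. Differences between groups are log2 fold changes of FPKM + 1 from limma. A gene was called when its p, adjusted over all genes by Benjamini-Hochberg, was not above 0.05 and its log2 fold change was 1 or more in size, up or down. The number of reads behind a value was recovered from the steps between FPKM values, which leaves a factor of 2 (reads or read pairs) undetermined. Totals ran from 13646343 to 28884411 reads per library, and outside the mitochondrial genome from 6951359 to 13576595 in C kidneys, from 2077604 to 7142896 in M kidneys and from 2225739 to 4271201 in AA kidneys. M mice 1 to 3 stood apart. They listed 10068 to 12222 genes above 0, against 18695 to 25460 in all other libraries, and their most frequent count from 3 reads upwards was 20, 30 and 22 reads, against 4 or 8 elsewhere. The M group is therefore also described by M mice 4 and 5 alone. The mitochondrial share of reads was 53.0% to 62.5% in C kidneys, 69.2% to 87.2% in AA kidneys, 84.8% to 86.8% in M mice 1 to 3 and 64.0% to 72.9% in M mice 4 and 5, so that the C group overlapped neither of the others, and its part in the differences from C was not tested. In whole kidney, fewer cells of a type and less RNA per cell cannot be told apart.

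The promoters below show the kinds of site through which this class is switched on, and Jun is printed first because most of the results turn on it. The sequences are the 150 bases before the RefSeq start on GRCm38.p6, written 5' to 3' on the strand of the gene, and capitals mark the matches to the motifs searched. The gene spans given further below are those of GENCODE M21. For Dusp1 and Zfp36 those spans begin upstream of the RefSeq start, so that the windows printed lie inside them.
Jun, chr4:95052223-95052372, minus strand: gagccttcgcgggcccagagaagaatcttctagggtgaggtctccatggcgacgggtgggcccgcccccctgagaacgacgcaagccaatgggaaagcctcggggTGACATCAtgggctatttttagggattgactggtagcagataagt
Fos, chr12:85473740-85473889, plus strand: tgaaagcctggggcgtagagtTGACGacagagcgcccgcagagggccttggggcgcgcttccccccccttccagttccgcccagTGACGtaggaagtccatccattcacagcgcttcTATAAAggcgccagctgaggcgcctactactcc
Dusp1, chr17:26508473-26508622, minus strand: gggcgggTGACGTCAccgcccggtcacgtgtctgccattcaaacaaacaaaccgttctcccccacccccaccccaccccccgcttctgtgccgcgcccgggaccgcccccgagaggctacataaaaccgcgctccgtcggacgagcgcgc
Zfp36, chr7:28379229-28379378, minus strand: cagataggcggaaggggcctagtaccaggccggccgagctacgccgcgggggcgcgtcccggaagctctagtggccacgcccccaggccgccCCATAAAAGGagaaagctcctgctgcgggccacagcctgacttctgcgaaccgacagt
The Jun promoter held TGACATCA, an AP-1-like site bound by Jun and ATF proteins, at positions -45 to -38 before the start. The Dusp1 promoter held the full cyclic AMP response element TGACGTCA at -143 to -136. The Fos promoter held the shorter TGACG at -129 to -125 and at -66 to -62, and the TATA box TATAAA at -33 to -28. The capitals in Zfp36 are a CArG box, the site of SRF, at -58 to -49. Windows of 250 bases before the start were searched on both strands for 8 of the 10 members. TGACG, which is also contained in TGACGTCA, occurred in 5 of the 8 (Atf3, Dusp1, Fos, Fosb and Junb), against 17.8% of 32851 windows of all genes. TGACATCA occurred in 2.93% of all windows, TGACGTCA in 1.55%, the CArG box in 1.47% and TATAAA in 12.4%. The consensus AP-1 site TGANTCA occurred in 6.75% of all windows and in 0 of the 8. The motifs were chosen with the values of these genes known, and a match is a description of letters.

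The 3' UTRs show the other end of the response, since TATTTAT, written as DNA, is the core that tristetraprolin binds. The first match in the 3' UTR of 5 members is printed with 9 bases on each side, from the GENCODE M21 transcripts, with the heptamer in capitals.
Jun: gcttgtgcaTATTTATaatagcgtt
Fos: ttttcaattTATTTATtaagatgga
Ier3: tctaattaaTATTTATgtatttatg
Zfp36: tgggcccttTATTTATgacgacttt
Dusp1: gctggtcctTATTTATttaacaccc
Within the last 500 bases of the 3' UTR the heptamer was found in 6 of the 9 members with a UTR of that length (Atf3, Jun, Zfp36, Fos, Dusp1 and Ier3), against 15.1% of 14379 genes. At least 2 copies were found in 4 of the 9, against 2.70% of genes, and Ier3 held 4. Egr1, Ier2 and Junb, whose 3' UTR of 485 bases was too short for the count, held none anywhere in the 3' UTR.

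Of the 10 members, Jun alone differed in both comparisons with the M group. It rose in M vs. C, by 1.78 on the log2 scale, and fell in AA vs. M, by 1.72 on the same scale. In M vs. C, 1 of 10 members was called, Jun, where 1.38% of the 21153 genes tested were called and 0.269% were called higher. In AA vs. M, 2 of 10 were called lower, Jun and Ier3, where 12.8% of 19798 genes were called and 1.07% were called lower. In AA vs. C, 1 of 10 was called, Ier2, which was lower, where 19.8% of 21898 genes were called and 9.61% were called lower. The M libraries enter both of the first comparisons, so that a high M value raises the one and lowers the other. Of the 10 members, 2 had an unadjusted p under 0.05 in M vs. C, 4 in AA vs. M and 1 in AA vs. C, beside 16.5%, 32.1% and 46.8% of all genes. Groups that did not overlap were seen for 1 member in each comparison (Jun, Jun and Ier2), beside 4.72%, 13.2% and 24% of all genes, and 0 members lay wholly lower in M vs. C, as 3.67% of genes did. The split of calls over all genes depended on the scaling. In M vs. C, 57 genes were called higher and 234 lower, against 132 and 207 with libraries centred on their medians and 31 and 1578 with the same total in every library. In AA vs. M, 2321 were called higher and 212 lower, against 1213 and 1600 with libraries centred and 1584 and 695 with quantile normalization. In AA vs. C, 2241 were called higher and 2105 lower, against 862 and 5923 with the same total. The members' median log2 fold change was 0.49 in M vs. C, -0.68 in AA vs. M and -0.03 in AA vs. C, beside -0.12, 0.17 and 0.09 over all genes tested. It depended on which M libraries were used. For M mice 4 and 5 alone it came to 1.00 in M vs. C, where 6 members had an unadjusted p under 0.05 and 0 were called. Over all genes, the median there was 0.045, 2489 of 20868 had such a p and 0 were called. In AA vs. M the members' median came to -1.20 over the 9 members tested, of which Jun and Ier2 were called lower. In that fit the median over all genes was 0.12, and 1656 of 19208 genes were called, 1196 of them lower. With M mice 1 to 3 alone the members' median was 0.058 and 0.021, beside -0.28 and 0.29 over all genes. Without M mouse 5 it was 0.11 and -0.37, beside -0.21 and 0.21 over all genes. With the same total in every library it was -0.13 in M vs. C, beside -0.58 over all genes. With all libraries as deposited, the log2 fold change was above 0 for 6, 2 and 5 of the 10 members in these comparisons, beside 32.1%, 62.3% and 56.3% of all genes.

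**Figure D1:**
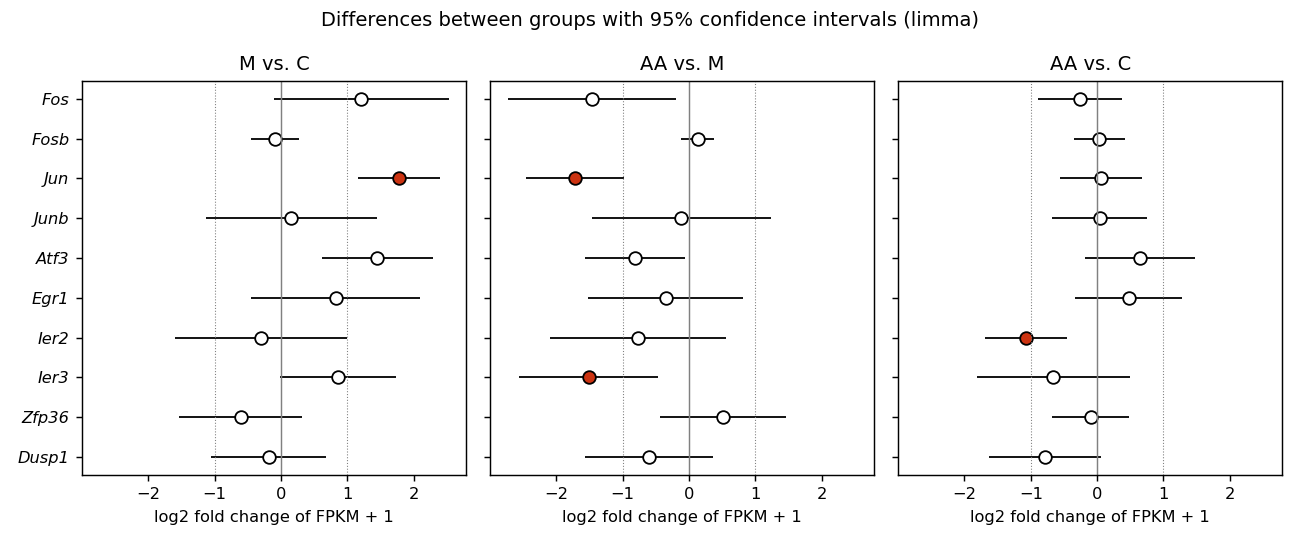
Log2 fold change of FPKM + 1 for each member and each pair of groups, with 95% confidence intervals from limma, 5 mice per group. Filled points are called, and dotted lines mark a log2 fold change of 1 in either direction. Jun sits at 1.78 in M vs. C, at -1.72 in AA vs. M and at 0.06 in AA vs. C.

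Jun (ENSMUSG00000052684, GRCm38 chr4:95049034-95052222, minus strand) is a gene of a single exon and encodes the AP-1 subunit that can pair with itself or with Fos proteins. It stood at 1.89, 1.78, 1.21, 2.74 and 1.26 FPKM in C mice 1 to 5. In M mice 1 to 5 it stood at 6.43, 13.1, 7.32, 6.59 and 9.70 FPKM. In AA mice 1 to 5 it stood at 0.599, 1.74, 2.57, 3.61 and 1.52 FPKM. Every M kidney was above every C and every AA kidney, and the C and AA ranges overlapped. The means were 1.78 ± 0.621 FPKM in C kidneys, 8.64 ± 2.84 in M kidneys and 2.01 ± 1.14 in AA kidneys (SD, n = 5). Between 238 and 966 reads lay behind the M values and between 26 and 237 behind the AA values. The limma estimate for M vs. C was 1.78 (SE 0.29, 95% interval 1.16 to 2.40, limma adjusted p = 0.0182), and Jun ranked 36 by p among the genes tested. The estimate for AA vs. M was -1.72 (SE 0.34, interval -2.46 to -0.98, limma adjusted p = 0.00574). For AA vs. C it was 0.06 (SE 0.28, interval -0.56 to 0.67, limma adjusted p = 0.892), an interval that does not reach 1 in either direction. Groups that did not overlap with M higher were found for 1.05% of genes in M vs. C, and with AA lower for 1.31% in AA vs. M.

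Jun kept its direction under all 25 alternatives, in both comparisons with the M group, as the plot of Jun by setting shows. With M mice 4 and 5 as the whole M group, Jun stood at 1.73 in M vs. C (limma adjusted p = 0.0900, where 0 of 20868 genes were called and 2489 had an unadjusted p under 0.05), and at -1.67 in AA vs. M (limma adjusted p = 0.0336). The M vs. C call was also lost without C mouse 5 (limma adjusted p = 0.0679) or without M mouse 3 (limma adjusted p = 0.0549), at estimates of 1.71 and 1.82. With libraries brought to the same total, which moved the median of all genes from -0.12 to -0.58 in M vs. C, Jun stood at 1.11 (limma adjusted p = 0.108), and relative to that median at 1.69, against 1.90 in the values as deposited. The same scaling gave -1.83 in AA vs. M (limma adjusted p = 0.0680). With the same nuclear total, with quantile normalization and with libraries centred, Jun stood at 1.84, 2.01 and 2.14 in M vs. C. In AA vs. M these gave -1.85, -1.97 and -2.24, and Jun was called in each of these fits.

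**Figure D2:**
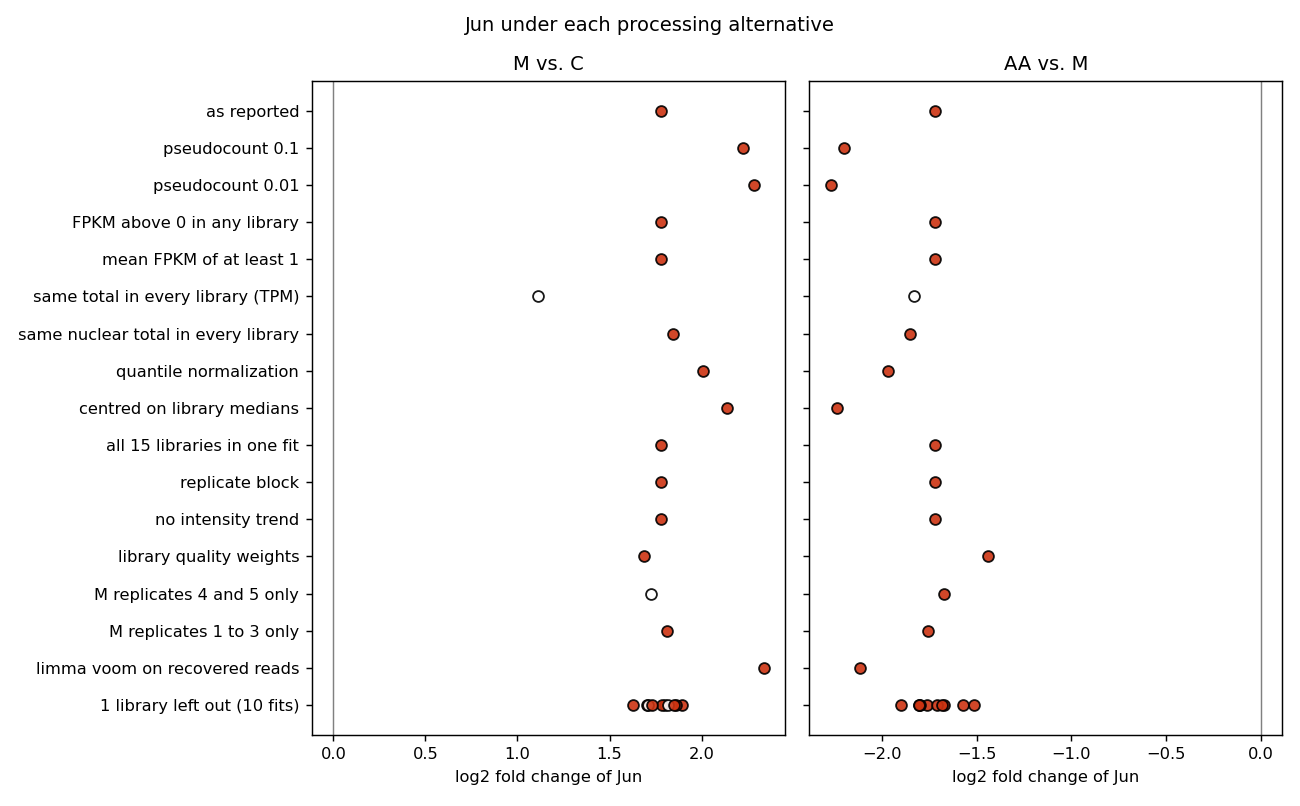
Log2 fold change of Jun in M vs. C (left) and AA vs. M (right) under each processing alternative, one row per alternative. Filled points were called, open points were not, and the bottom row holds 10 fits that leave out 1 library each. All points lie above 0 on the left, from 1.11 to 2.34, and below 0 on the right, from -2.27 to -1.44.

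Atf3 (ENSMUSG00000026628, chr1:191170296-191218039, minus strand) encodes a stress-induced factor of the ATF family that pairs with Jun proteins. It stood at 0.0867, 0.254, 0.266, 3.10 and 0.375 FPKM in C mice 1 to 5 and at 3.76, 1.82, 2.87, 3.29 and 5.71 FPKM in M mice 1 to 5. Every M kidney was above 4 of the 5 C kidneys, and C mouse 4 lay inside the M range. The M vs. C estimate of 1.45 (SE 0.39, limma adjusted p = 0.0870) missed the threshold, and without C mouse 4 it was 1.80 (limma adjusted p = 0.0265). The AA kidneys held 0.886, 3.65, 1.05, 1.89 and 0.750 FPKM, between the medians of the C group (0.266) and the M group (3.29) except for AA mouse 2. The AA vs. M estimate was -0.81 (SE 0.35, limma adjusted p = 0.128) and the AA vs. C estimate 0.65 (SE 0.38, limma adjusted p = 0.200). Against C and AA, M mice 4 and 5 alone gave estimates of 1.77 in M vs. C (limma adjusted p = 0.194) and -1.12 in AA vs. M (limma adjusted p = 0.125). With quantile normalization or with libraries centred on their medians, Atf3 was called in both comparisons with the M group. C mouse 4 also had the highest summed level of 8 macrophage markers in its group, 105 FPKM against 16.8 to 28.9 FPKM in the other C mice. Whether this bears on its Atf3 was not tested.

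With the values as deposited, the other AP-1 subunits did not pass in any comparison, and their spread within groups was wide. Fos (ENSMUSG00000021250, chr12:85473890-85477273, plus strand), the partner of Jun, stood at 0, 1.71, 5.38, 1.04 and 14.1 FPKM in M mice 1 to 5. In the C group it stood at 0.0265, 0.994, 0.698, 1.31 and 0 FPKM. In the AA group it was listed at 0 in mice 1, 2 and 5, at 0.453 in mouse 3 and at 1.26 in mouse 4. M mice 2, 3 and 5 were above every other kidney, while M mouse 1 was listed at 0 and M mouse 4 lay among the C values. The estimate was 1.21 in M vs. C (SE 0.61, limma adjusted p = 0.342) and -1.47 in AA vs. M (SE 0.59, limma adjusted p = 0.102). Without M mouse 1, the AA vs. M estimate of Fos was -1.92 (limma adjusted p = 0.0359), and without M mouse 5 it was -0.94 (limma adjusted p = 0.157). Fos was also called lower in AA vs. M by limma voom on the recovered reads (-4.75) and with libraries centred (-1.98). Fos stood at 1.87 in M vs. C when M mice 4 and 5 made up the M group (limma adjusted p = 0.300), and it then had too few libraries above 0 to be tested in AA vs. M.

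Junb (ENSMUSG00000052837, chr8:84974484-84978718, minus strand), a second Jun protein, stood at 8.80, 0, 3.33, 6.03 and 15.5 FPKM in M mice 1 to 5, so that the M group held both the lowest and the highest value of the 15 kidneys. The C kidneys held 2.87 to 5.83 FPKM and the AA kidneys 1.72 to 8.60 FPKM. Its estimates were 0.15 in M vs. C (interval -1.14 to 1.45), -0.12 in AA vs. M (interval -1.46 to 1.23) and 0.04 in AA vs. C (interval -0.67 to 0.75). The first pair of intervals is too wide to separate a change of 1 in either direction from none. Those from M mice 4 and 5 alone were 1.13 in M vs. C (limma adjusted p = 0.262) and -1.09 in AA vs. M (limma adjusted p = 0.207), and with M mice 1 to 3 alone they had the opposite signs, -0.50 and 0.53. Fosb (ENSMUSG00000003545, chr7:19302696-19310051, minus strand) was the lowest member, at 0 to 0.408 FPKM in all kidneys but C mouse 4, which held 0.918 FPKM from 194 reads. The other kidneys had at most 41 reads on Fosb. In the main fit of each pair of groups, no estimate for Fosb exceeded 0.13 in size, on a scale where the added 1 outweighs its levels. The alternatives gave larger ones, from -0.49 to 0.27 for M vs. C. For AA vs. M they spanned -0.39 to 1.91, and for AA vs. C -0.12 to 1.77. Both upper ends came from limma voom on the recovered reads, and a pseudocount of 0.01 gave 1.61 for AA vs. M. Fosb was called under none of the alternatives.

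Egr1 (ENSMUSG00000038418, chromosome 18), a zinc finger factor driven by SRF and Elk1, showed the same pattern of 1 very high M kidney. It stood at 2.42, 0, 3.42, 2.59 and 12.8 FPKM in M mice 1 to 5. The C kidneys fell into low values of 0.278, 0.745 and 0.373 FPKM in mice 1, 3 and 5 and higher values of 2.90 and 2.60 FPKM in mice 2 and 4. The AA kidneys held 1.93, 0.890, 2.94, 3.48 and 1.26 FPKM. All groups overlapped, and the estimates were 0.83 in M vs. C (SE 0.59, limma adjusted p = 0.512), -0.35 in AA vs. M (SE 0.55, limma adjusted p = 0.700) and 0.47 in AA vs. C (SE 0.37, limma adjusted p = 0.331). M mice 4 and 5 alone gave 1.73 in M vs. C (limma adjusted p = 0.292) and -1.26 in AA vs. M (limma adjusted p = 0.159), and M mice 1 to 3 alone gave 0.22 and 0.25.

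**Figure D3:**
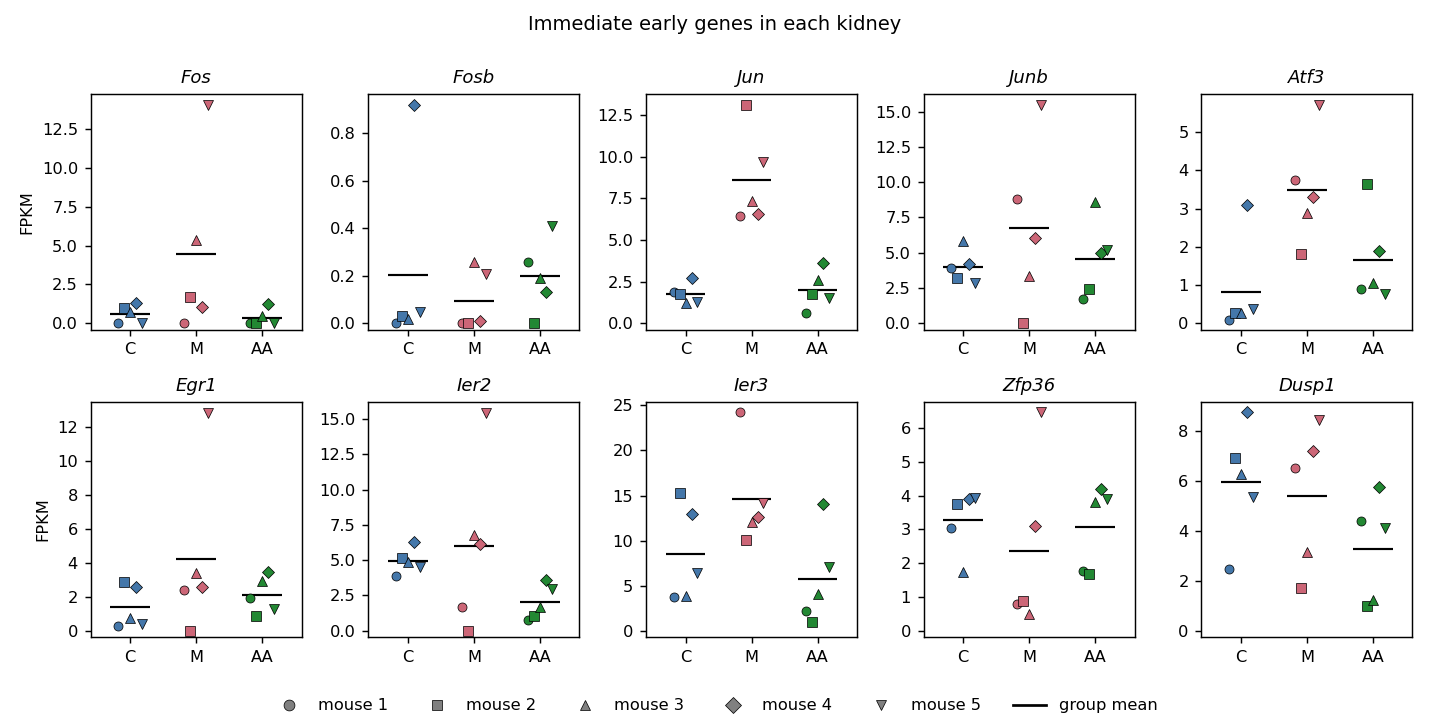
FPKM of each member in each kidney, by group (C, M and AA, 5 mice each). Marker shapes are mouse numbers, horizontal lines are group means, and each panel has its own axis from 0. In the Jun panel the M kidneys lie at 6.43 to 13.1 FPKM above C and AA kidneys at 0.599 to 3.61 FPKM, while for Fos, Junb, Egr1 and Ier2 the M mean is pulled up by mouse 5.

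Ier2 (ENSMUSG00000053560, chr8:84661331-84662852, minus strand) is a single-exon gene for a nuclear protein induced by growth factors and, like Junb, lies on chromosome 8. It stood at 3.87, 5.15, 4.87, 6.29 and 4.50 FPKM in C mice 1 to 5 and at 0.724, 1.02, 1.71, 3.58 and 2.98 FPKM in AA mice 1 to 5. Every AA kidney was below every C kidney, as for 12.5% of genes in AA vs. C. The estimate was -1.07 (SE 0.28, interval -1.69 to -0.46, limma adjusted p = 0.0124). It stayed under an adjusted p of 0.05 with any 1 library left out, but its size came under 1 without C mouse 4 (-0.99), AA mouse 1 (-0.90) or AA mouse 2 (-0.95). It was not called by limma voom on the recovered reads (-1.38, adjusted p = 0.0565) or with all 15 libraries in one fit (adjusted p = 0.145). The AA values rest on 14 to 112 reads and the C values on 189 to 492. The M kidneys ranged from 0 in mouse 2 to 15.5 FPKM in mouse 5 and overlapped both groups, and against M mice 4 and 5 alone Ier2 stood at -1.95 in AA vs. M (limma adjusted p = 0.0311). With the same pair it was 0.88 in M vs. C (limma adjusted p = 0.356), against -1.09 with M mice 1 to 3 alone.

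Ier3 (ENSMUSG00000003541, chr17:35821684-35822923, plus strand), a stress-responsive gene that modulates cell survival, had the highest median of the members over the 15 kidneys, at 10.1 FPKM. It stood at 24.2, 10.1, 12.0, 12.7 and 14.1 FPKM in M mice 1 to 5. In AA mice 1 to 5 it stood at 2.21, 0.980, 4.12, 14.1 and 7.03 FPKM, and in C mice 1 to 5 at 3.74, 15.3, 3.85, 13.0 and 6.39 FPKM. AA mouse 4 lay inside the M range and the other AA kidneys below it. The estimate was -1.52 in AA vs. M (SE 0.49, interval -2.56 to -0.47, limma adjusted p = 0.0450) and 0.86 in M vs. C (SE 0.40, limma adjusted p = 0.311). The AA vs. M call held in 2 of 10 fits without 1 library, those without AA mouse 4 or AA mouse 5. Leaving out any other library took the adjusted p to between 0.0530 and 0.101. The call was also lost with either other pseudocount, with genes above 0 in any library, with the same total and with the replicate block. So it was with no intensity trend, with library quality weights, with M mice 1 to 3 alone and by limma voom. It held with the same nuclear total, with quantile normalization, with libraries centred, with all 15 libraries in one fit and with genes of at least 1 FPKM on average. With M mice 4 and 5 alone the estimate was -1.46 (limma adjusted p = 0.184), and that of M vs. C was 0.80 (limma adjusted p = 0.631).

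The feedback members did not pass in any comparison. Zfp36 (ENSMUSG00000044786, chr7:28376784-28380253, minus strand), which encodes tristetraprolin, stood at 0.795, 0.883, 0.488, 3.11 and 6.48 FPKM in M mice 1 to 5. M mice 1 to 3, the libraries with the fewest genes, were below every other kidney, and M mouse 5 was above every other one. The C kidneys held 1.75 to 3.92 FPKM and the AA kidneys 1.69 to 4.19 FPKM. The estimate was -0.61 in M vs. C (SE 0.43, limma adjusted p = 0.508), and it was 0.41 with M mice 4 and 5 alone (limma adjusted p = 0.730) and -1.29 with M mice 1 to 3 alone (limma adjusted p = 0.0106). In AA vs. M it was 0.51 (SE 0.44, limma adjusted p = 0.460), and its sign also turned with M mice 4 and 5 alone, to -0.51.

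Dusp1 (ENSMUSG00000024190, chr17:26505590-26562128, minus strand) encodes a phosphatase that switches off the p38, JNK and ERK kinases. It stood at 2.46, 6.91, 6.27, 8.77 and 5.36 FPKM in C mice 1 to 5 and at 4.38, 0.987, 1.21, 5.75 and 4.12 FPKM in AA mice 1 to 5. The M kidneys held 1.70 to 8.42 FPKM, and all groups overlapped. The estimates were -0.18 in M vs. C (interval -1.05 to 0.69), -0.60 in AA vs. M (interval -1.57 to 0.37) and -0.78 in AA vs. C (interval -1.63 to 0.06, limma adjusted p = 0.133). The estimates from M mice 4 and 5 alone were 0.42 in M vs. C (limma adjusted p = 0.768) and -1.20 in AA vs. M (limma adjusted p = 0.159).

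Ordered by the median FPKM in the C group, the members ran from Ier3 (6.39) and Dusp1 (6.27) through Ier2 (4.87), Junb (3.91), Zfp36 (3.76), Jun (1.78), Egr1 (0.745), Fos (0.698) and Atf3 (0.266) to Fosb (0.0319). Neighbours in this order had overlapping ranges over the 5 C kidneys. In the M group the median of Jun was 7.32 FPKM, next to that of Ier3 (12.7), and in the AA group it was 1.74 FPKM. Atf3 spanned 35.7-fold and Egr1 10.4-fold between the lowest and the highest C kidney, against 1.63-fold for Ier2 and 2.27-fold for Jun.

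The members also varied between single kidneys of the same group. M mouse 5 held the highest of the 15 values for 6 of the 10 members, and its members summed to 102 FPKM. It also listed the most genes above 0 (25460), and the share of all genes highest in it was not counted. M mouse 2 listed 4 members at 0 (Fosb, Junb, Egr1 and Ier2) and yet held the highest Jun value of all. AA mouse 4 was the highest AA kidney for 7 members, and C mouse 4 the highest C kidney for 6. The mean log2(FPKM + 1) of the members was 1.67 ± 0.40 in C kidneys, 2.18 ± 0.70 in M kidneys and 1.51 ± 0.42 in AA kidneys (SD, n = 5), and the groups overlapped. Across the 15 libraries 42 of the 45 pairs of members had a Spearman correlation above 0, with a median of 0.39 and a range from -0.11 to 0.75, the highest between Fos and Jun. These points share library depth and scaling, so the correlations are descriptions.

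**Figure D4:**
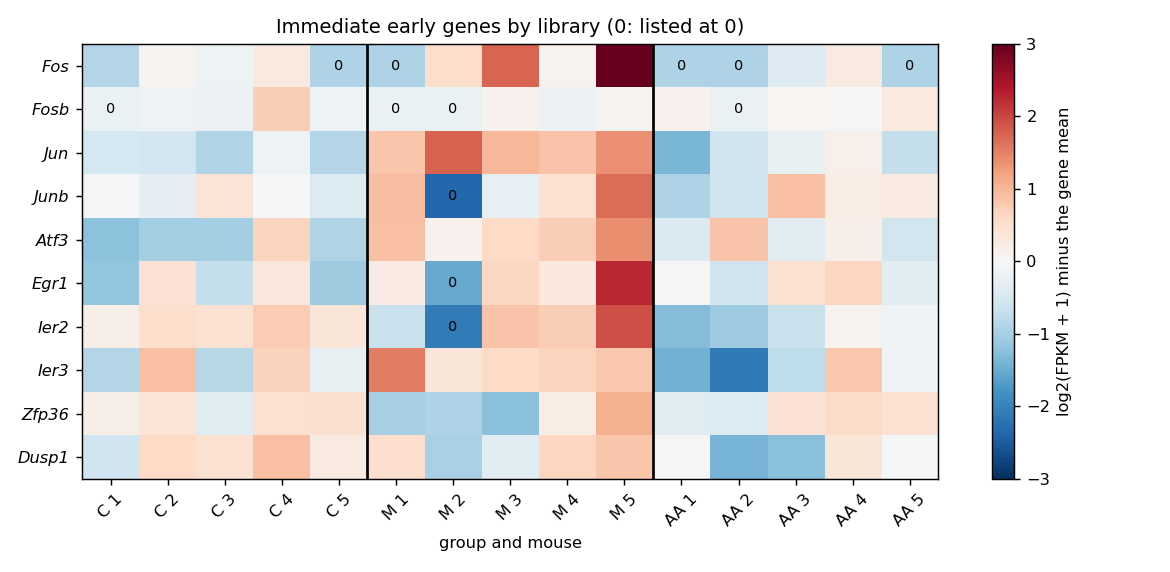
Log2(FPKM + 1) of each member (rows) in each library (columns), minus the mean of the gene over the 15 libraries, red above and blue below, with 0 written where FPKM is listed at 0. The Jun row is red in all M columns, M mouse 5 is high for Fos, Junb, Atf3, Egr1, Ier2 and Zfp36, and M mouse 2 is listed at 0 for 4 members.

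Other immediate early genes were examined as a list. Of 28 such genes (the remaining Fos, Jun, Egr and Nr4a factors, Klf factors, Gadd45 genes and others), limma called 0 of 27 tested in M vs. C and 0 of 26 in AA vs. M, with 5 and 3 at an unadjusted p under 0.05, and limma voom also called 0 in both. Over all genes, 1.38% were called in the first of these comparisons and 12.8% in the second, and 16.5% and 32.1% had such a p. Klf6 was called in M vs. C with libraries centred and with all 15 libraries in one fit. With M mice 1 to 3 alone, 7 of 26 were called, 2 higher and 5 lower. Of all 17103 genes tested in that fit, 3404 were called, 699 higher and 2705 lower. In AA vs. M, Per1 was called lower with quantile normalization, and Klf2 and Per1 with library quality weights. With libraries centred, Klf2, Per1 and Btg2 were called lower there. Of all 19798 genes, 695, 799 and 1600 were called lower in these fits. With M mice 1 to 3 alone, 6 of 23 were called in AA vs. M, 4 higher and 2 lower, beside 3744 of 16761 genes. In AA vs. C, 5 of 26 were called, a share close to the 19.8% of all genes. Gadd45g, a stress-induced growth arrest gene, fell by 3.05 on the log2 scale (SE 0.65, limma adjusted p = 0.00451). It held 10.7 to 112 FPKM in C kidneys and 0.376 to 7.04 FPKM in AA kidneys, with no overlap. Per1, a clock gene with an immediate early response, fell by 1.80 (SE 0.41, limma adjusted p = 0.00622), also with no overlap. Klf2, a shear stress factor of endothelium, fell by 1.58 (limma adjusted p = 0.0119), and Gadd45b fell by 1.10 (limma adjusted p = 0.0299), both with overlapping groups. The call of Gadd45b was lost with genes above 0 in any library, with all 15 libraries in one fit, with library quality weights and by limma voom. Klf6, an injury-induced Krüppel-like factor, rose by 1.00 (limma adjusted p = 0.0178), but was not called with the same total or the same nuclear total in every library, with quantile normalization, with libraries centred or with library quality weights. From M mice 4 and 5 alone, limma called 0 of 27 for M vs. C, with 6 at an unadjusted p under 0.05, while 5 of 22 were called lower in AA vs. M (Klf2, Per1, Gadd45b, Gadd45g and Sik1). Over all genes, 2489 of 20868 had such a p in M vs. C and 1196 of 19208 were called lower in AA vs. M.

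Among 20 further feedback regulators (Dusp, Spry, Spred and Socs genes and inhibitors of NF-κB), Socs3 was the one called in M vs. C, where 1.38% of all genes were called. Socs3, an inhibitor of cytokine signalling through JAK and STAT proteins, held 0.310 to 0.920 FPKM in C kidneys, 4.14 to 6.24 FPKM in M kidneys and 0.307 to 6.99 FPKM in AA kidneys. No C kidney overlapped the M range, and the AA kidneys spanned both. The estimate was 1.94 in M vs. C (SE 0.25, limma adjusted p = 0.0131) and 1.13 in AA vs. C (SE 0.39, limma adjusted p = 0.0406), and in AA vs. M it was -0.81 (SE 0.42, limma adjusted p = 0.195). The Socs3 call in AA vs. C was lost with either other pseudocount, with genes above 0 in any library and under each other scaling of the libraries. When M mice 4 and 5 were the M group, 0 of 20 were called in M vs. C by limma, 6 had an unadjusted p under 0.05, and 1 of 18 was called in AA vs. M, the NF-κB regulator Nfkbiz, which was lower. Over all genes, 2489 of 20868 had such a p in M vs. C and 1196 of 19208 were called lower in AA vs. M. Spry4, an inhibitor of receptor tyrosine kinase signalling, was higher in AA vs. M by 1.10 (SE 0.34, limma adjusted p = 0.0407) and in AA vs. C by 1.17 (SE 0.35, limma adjusted p = 0.0226). It held 2.18 to 7.03 FPKM in AA kidneys, all above the 0.459 to 1.73 FPKM of the M kidneys, and the call in AA vs. C was lost with the same total and with library quality weights. The call in AA vs. M was lost with M mice 4 and 5 alone, with a pseudocount of 0.01, with genes above 0 in any library, under each other scaling of the libraries, with the replicate block, with library quality weights and by limma voom.

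Of 23 genes upstream (MAP kinases, their activating kinases, SRF and its partners), limma called 0 for M vs. C as well as 0 for AA vs. M, with 2 at an unadjusted p under 0.05 in each, and limma voom called 0 in both. Over all genes, 16.5% and 32.1% had such a p. Map2k2 (MEK2), which activates ERK kinases, held 6.95 to 11.6 FPKM in C kidneys and 1.87 to 6.32 FPKM in M kidneys, with no overlap. Its estimate was -1.06 (SE 0.33, limma adjusted p = 0.135), and it was called lower in M vs. C with the same total and with M mice 1 to 3 alone. Against M mice 4 and 5 alone 0 of 23 were called in M vs. C, with 1 at an unadjusted p under 0.05 by limma, and 1 was called in AA vs. M, Map2k7, an activator of JNK, which was lower. In that M vs. C fit 0 of 20868 genes were called and 2489 had such a p, and in that AA vs. M fit 1196 of 19208 were called lower. Map2k3, which activates p38, was lower in AA vs. C by 1.16 (SE 0.21, limma adjusted p = 0.00198), at 2.00 to 3.86 FPKM in AA kidneys against 6.60 to 10.2 FPKM in C kidneys. Mapk3 (ERK1) and Mapkapk2, the most abundant of these genes over the 15 libraries, had means of 9.26 and 9.90 FPKM in C kidneys, 8.39 and 8.59 in M kidneys and 8.48 and 11.3 in AA kidneys. Their estimates lay between -0.21 and 0.39 in the 3 comparisons, none of which passed.

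Zfp36 protein acts on cytokine messages, and 9 of 11 such targets could be tested. In M vs. C, limma called 0 of 9, with 4 at an unadjusted p under 0.05, and limma voom called 0. Over all genes, 1.38% were called there and 16.5% had such a p. Il1b, an inflammatory cytokine of macrophages, was called higher there with genes of at least 1 FPKM on average. The same held with the same total, with the same nuclear total and with M mice 1 to 3 alone. With libraries centred Il1b, Cxcl2 and Ccl2 were called higher, and with all 15 libraries in one fit Il1b and Ccl2. The remaining alternatives, leaving out single libraries aside, called 0 of these targets. In AA vs. M, 4 of 9 were called, where 12.8% of all genes were called, 11.7% higher and 1.07% lower. Il6 was higher by 1.13 (limma adjusted p = 0.0226), Il10 by 1.70 (limma adjusted p = 0.0135) and Il23a by 1.99 (limma adjusted p = 0.00622). Il1b fell by 1.30 (SE 0.40, limma adjusted p = 0.0397) from 0.733 to 4.94 FPKM in M kidneys to 0 to 1.92 FPKM in AA kidneys. Il6, Il10 and Il23a had no reads in M mice 1 to 3, the libraries with the fewest genes. With every library at the same total, limma called 0 of these targets in AA vs. M, with 5 at an unadjusted p under 0.05. In that fit 4322 of all 19798 genes had such a p. When M mice 4 and 5 were the M group, 1 of 8 targets was called in AA vs. M, Cxcl1, which was lower, beside 1196 of 19208 genes called lower. Il6, Il10 and Il23a were also called higher in AA vs. C, Il6 by 1.10 (SE 0.28), Il10 by 1.45 (SE 0.40) and Il23a by 1.56 (SE 0.37), with AA means of 1.69 ± 1.22, 3.39 ± 2.67 and 5.08 ± 3.04 FPKM (SD, n = 5). In that comparison 10.2% of all genes were called higher. With the same total, Il10 was the only target called there, beside 862 of 21898 genes called higher. Il6 was not called in AA vs. C with libraries centred, with library quality weights or with genes of at least 1 FPKM on average.

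Of 12 heat shock genes, another stress response, 2 fell in AA vs. C, where 9.61% of all genes were called lower. Hspa8, the constitutive Hsp70 chaperone, fell by 1.25 (SE 0.32, limma adjusted p = 0.0105), from 59.8 to 189 FPKM in C kidneys to 36.3 to 53.1 FPKM in AA kidneys. Hspa1a, the inducible one, fell by 1.14 (SE 0.33, limma adjusted p = 0.0185). Hspa1a and Hspa1b are near-identical copies, and how reads shared between them were counted is not given in the sources used here. In M vs. C and AA vs. M limma called 0 of 12, with 1 and 2 at an unadjusted p under 0.05, and limma voom called 0 and 1. Over all genes, 16.5% and 32.1% had such a p. Restricting the M group to mice 4 and 5, limma also called 0 of 12 in both, with 0 and 3 at an unadjusted p under 0.05. Of all genes, 0 of 20868 were called in M vs. C and 1656 of 19208 in AA vs. M in these fits. Such a p was found for 2489 and 5144 genes.

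Markers of kidney epithelium were detected in every library, at levels that differed between groups. The summed level of 10 proximal tubule markers, led by Miox, was 281 to 2080 FPKM in C kidneys, 14.7 to 51.3 FPKM in M kidneys and 45.1 to 85.0 FPKM in AA kidneys, and 5 of them were listed at 0 in at least 1 M library. The sum of 8 macrophage markers, led by Lyz2, was 16.8 to 105 FPKM in C kidneys, 141 to 413 FPKM in M kidneys and 101 to 150 FPKM in AA kidneys. The sum was 320 to 413 FPKM in M mice 1 to 3 and 141 and 147 FPKM in M mice 4 and 5, beside 140 and 150 FPKM in AA mice 1 and 2. Of the 8 markers, 3 were called higher in M vs. C (Lyz2, C1qb and C1qc), and all 8 had an unadjusted p under 0.05, beside 0.269% and 16.5% of all genes. Csf1r, the receptor for macrophage colony-stimulating factor, ran against the others, at -1.01 in M vs. C (limma adjusted p = 0.205), and fell in AA vs. C by 1.52 (limma adjusted p = 0.00376). Restricting the M group to mice 4 and 5, limma called 0 of 8 in both comparisons with the M group, with 6 and 2 at an unadjusted p under 0.05. Of all genes, 0 of 20868 were called in M vs. C and 1656 of 19208 in AA vs. M in these fits, and 2489 and 5144 had such a p. The part of macrophages in the level of Jun was not tested. Fibroblast markers, led by Col1a1, summed to 42.3 to 102 FPKM in C kidneys, 95.6 to 376 FPKM in M kidneys and 238 to 437 FPKM in AA kidneys. Endothelial markers, led by Emcn, summed to 17.8 to 35.3 FPKM in C kidneys, 15.3 to 22.9 in M kidneys and 8.82 to 18.5 in AA kidneys. Distal nephron markers, led by Aqp2, summed to 110 to 502 FPKM in C kidneys, 25.8 to 93.0 in M kidneys and 42.9 to 71.9 in AA kidneys. Neutrophil markers, led by S100a8, reached 11.5, 40.1 and 10.8 FPKM in the highest kidney of the C, M and AA groups, and podocyte markers, led by Synpo, 16.2, 23.7 and 14.6 FPKM.

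The genes most like the members across the kidneys were found by the Spearman correlation of log2(FPKM + 1) with the mean of the members over the 15 libraries, among 8840 protein-coding genes. They were Bcl2a1d (0.88), Dnase2a (0.87), Gtf3c6 (0.83), Tpm1 (0.83) and Dok1 (0.83). Bcl2a1d, a relative of Bcl2 in blood cells, averaged 0.625 FPKM in C kidneys, 4.02 in M kidneys and 0.768 in AA kidneys. It has near-identical copies in the mouse genome, so its level is uncertain. Tpm1, a tropomyosin, averaged 12.0, 18.7 and 11.2 FPKM in the same groups.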

How the data were processed

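Kidney RNA of 15 mice (5 each of the C, M and AA groups) was poly-A selected and sequenced in paired ends. Per the labels and the submitters' processing notes, the authors trimmed reads with fastp, aligned them to mm10 (GRCm38) with HISAT2 2.0.5 and counted them on genes with featureCounts 1.5.0-p3. The authors deposited 1 FPKM value per gene and library. The annotation release is not given in the sources used here. The authors' own tests used DESeq2 on counts, which were not used here.

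Genes were named by Ensembl identifier from GENCODE M21, which lacked 37 of 54532, and lengths are those of joined exons. Groups and mouse numbers came from the labels. Each pair of groups was compared by fitting log2(FPKM + 1) of its 10 libraries with lmFit, then moderating with eBayes (trend on) in limma 3.58.1, run under R 4.3.3. Tests were two-sided, and genes needed FPKM above 0 in 5 or more of those libraries. The pseudocount understates changes of low genes. Reads were recovered from the steps of low FPKM values, of which 97.6% to 98.7% per library came out whole within 0.05, and limma voom on them was an alternative added after the data were seen. The fits were tested on simulated data. Other steps ran in Python 3.11.15 (scipy 1.17.1, pandas 2.3.3, numpy 2.4.6), and plots were drawn with matplotlib 3.10.9.

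The 10 members and all gene and marker lists were chosen with earlier results of these data known. Besides the members, genes called in a list were named (up to 6), the 2 most abundant where fewer than 2 were called, the most abundant marker of each cell type, and the 5 genes most like the mean of the members among those above 0 FPKM in at least 10 libraries with a mean FPKM of at least 1. Cxcl1, Cxcl2, Ccl2, Sik1, Btg2, Hspa1b, Map2k2, Map2k7, Nfkbiz, Csf1r, C1qb and C1qc fall outside this rule and were named after their values were seen. Alternatives were pseudocounts of 0.1 and 0.01, other filters and scalings, all 15 libraries in one fit, a replicate block, no intensity trend, library quality weights, each library left out in turn, and M mice 4 and 5 or 1 to 3 alone. Promoter windows and starts came from RefSeq (GRCm38.p6), where 8 of the 10 members were searched. The low dose of AA, metabolites and gut bacteria were not analysed here.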

Additional observations from a re-analysis of the deposited data

Results flagged for a closer look

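C mouse 4 stood far from the other C mice for Fosb and for Atf3. Its Fosb level was 0.918 FPKM, and on the log2(FPKM + 1) scale its gap to the nearest C mouse was 0.928 of the whole range of the group. Its Atf3 level was 3.10 FPKM, and on the same log2 scale the gap was 0.823 of the range. The critical value of Dixon's ratio for 5 samples is 0.71. In all, 30 groups of 5 values (10 members in 3 groups) were tested, of which chance alone flags about 1 in 20, and 2 were found, both in this mouse. The mouse was also the highest C kidney for 6 of the 10 members. Without it, Atf3 was called in M vs. C, at 1.80 (limma adjusted p = 0.0265), and Ier2 was not called in AA vs. C because its size came to -0.99.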

How the results depend on the processing

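The number of members called was 0 to 2 in M vs. C, 1 to 2 in AA vs. M and 0 to 1 in AA vs. C when 1 library was left out. In M vs. C (1 as reported) it was 0 with the same total in every library and with M mice 4 and 5 only, and 2 with quantile normalization, with libraries centred on their medians and with all 15 libraries in one fit (Jun and Atf3). It was also 2 with M mice 1 to 3 only (Jun and Zfp36), where 3404 of 17103 genes were called. In AA vs. M (2 as reported) it was 0 with the same total, 1 with a pseudocount of 0.1 or 0.01, with genes above 0 in any library, with the replicate block, with no intensity trend and with library quality weights, 3 with quantile normalization (Jun, Atf3 and Ier3) and 4 with libraries centred (these and Fos). It stayed at 2 with other genes under limma voom (Fos and Jun), with M mice 4 and 5 only (Jun and Ier2) and with M mice 1 to 3 only (Jun and Zfp36). Over all genes, 4007 of 19791, 1656 of 19208 and 3744 of 16761 were called in these fits. In AA vs. C (1 as reported) the number of members called was 2 with the same total (Ier2 and Dusp1) and 0 with library quality weights, with all 15 libraries in one fit and with limma voom.

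Of 424 log2 fold changes of members under alternatives other than leaving out a library, 38 changed sign, and none of these was called as reported. With libraries centred, Fosb came to 0.27 in M vs. C, -0.39 in AA vs. M and -0.12 in AA vs. C, Ier2 to 0.058 and Dusp1 to 0.18 in M vs. C, Zfp36 to -0.0029 in AA vs. M, and Jun to -0.10 and Junb to -0.12 in AA vs. C. With quantile normalization, Fosb came to 0.054 in M vs. C, -0.13 in AA vs. M and -0.042 in AA vs. C, Dusp1 to 0.079 in M vs. C and Jun to -0.012 in AA vs. C. With the same total, Junb came to -0.70 and Ier3 to -0.048 in M vs. C, while AA vs. C gave -0.072 for Fosb, -0.72 for Jun, -0.90 for Junb and -0.065 for Egr1. With the same nuclear total, Junb came to -0.043 in AA vs. C. With pseudocounts of 0.1 and 0.01, Junb came to -0.36 and -1.01 in M vs. C and to 0.37 and 1.02 in AA vs. M, and with 0.01 Egr1 to 0.61 and Ier2 to 0.068 in AA vs. M. With quality weights, Ier2 came to 0.13 and Dusp1 to 0.080 in M vs. C and Zfp36 to 0.027 in AA vs. C, where limma voom gave 0.025. With M mice 4 and 5 only, Ier2 came to 0.88, Zfp36 to 0.41 and Dusp1 to 0.42 in M vs. C, and Zfp36 to -0.51 in AA vs. M. With M mice 1 to 3 only, Junb came to -0.50 in M vs. C, while AA vs. M gave 0.53 for Junb, 0.25 for Egr1 and 0.021 for Ier2.

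With 1 library left out, the signs of these estimates changed within the ranges given. In M vs. C they ran from -0.15 to 0.089 for Fosb, from -0.24 to 0.77 for Junb, from -0.75 to 0.26 for Ier2 and from -0.42 to 0.091 for Dusp1. In AA vs. M they ran from -0.73 to 0.28 for Junb and from -0.83 to 0.12 for Egr1. In AA vs. C they ran from -0.025 to 0.22 for Fosb, from -0.12 to 0.26 for Jun, from -0.19 to 0.26 for Junb and from -0.25 to 0.038 for Zfp36. The causes were not tested.

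The mice share only a number across groups. Same-numbered mice deviated from their group means with correlations from -0.23 to 0.17 over 7207 genes, and not every mouse correlated best with its own number. With the replicate block, 152 genes were called in M vs. C against 291, 2217 in AA vs. M against 2533 and 4345 in AA vs. C against 4346. Jun stayed called (adjusted p = 0.0496 and 0.0177), Ier3 in AA vs. M came to an adjusted p of 0.0528, and Ier2 in AA vs. C stayed called (adjusted p = 0.0144).

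With the same total, 9 of 26 other immediate early genes, 9 of 23 upstream genes and 9 of 12 heat shock genes were called lower in AA vs. C. In that fit, whose total includes the mitochondrial genes, 5923 of all 21898 genes were called lower. With the same nuclear total, 4, 1 and 2 genes of these lists were called lower, beside 2281 of all 21898. Over all genes, limma voom called 374, 4007 and 7729 in the 3 comparisons, and the same total 1609, 422 and 6785. Fosb, Fos and the AA values of Ier2 rest on few reads, which limits what can be said of them.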
